A study of Homo sapiens with 4 samples.

Results

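The intrinsic and extrinsic cell death machinery was described here by 39 genes: the BCL2 family, the caspases, the inhibitors of apoptosis and the factors that connect them. Every non-control probe of the array whose gene name was one of the 39 was taken, without regard to its values, which gave 61 of the 34127 probes (39 of 27193 gene names). The 39 genes themselves were chosen with earlier results of these data known. Of these genes, 22 had 1 probe and 17 had 2 or more, and 4 of the probes were printed 10 times on each array.

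All measurements were made in THP1, a human monoblastic AML cell line that carries the fusion gene MLL-AF9. The cells received a single transfection of 30 nM of a synthetic mimic of miR-511-5p or of negative control #1 mimic, and total RNA was taken on day 2. Each of 2 independent experiments gave 1 array of each treatment, so that each group held 2 arrays. The groups share the cell line, the transfection and the low serum medium, and an untreated culture was not analysed here, so each value compares 1 mimic with the other.

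Apoptosis through the mitochondrial route is set by the balance within the BCL2 family. Guardian proteins such as BCL2 and MCL1 hold the effectors BAX and BAK1 in check, BH3-only proteins neutralise the guardians or activate the effectors, and the effectors then open the outer mitochondrial membrane. Cytochrome c released from mitochondria assembles with APAF1 into the apoptosome that activates caspase 9, while death receptors activate caspase 8 through the adaptor FADD, and caspase 8 can cleave the BH3-only protein BID to join both routes. Monocytic leukaemia cells also express inflammatory caspases, which act in pyroptosis and cytokine maturation. A miRNA binds transcripts mainly through its seed, the bases near its 5′ end, and usually lowers the abundance or the translation of the transcripts it binds.

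The sequences that bear on the comparison are the mature miRNA and the stretches of the BID and BCL2 transcripts that the probes read. The miRNA is given as in RefSeq (GRCh38.p14, chr10:17845122-17845142, plus strand), 5′ to 3′, with its seed, bases 2 to 8, in capitals. The other lines are 30 bases of a probe of 60, in the sense of the transcript, with the hg19 positions of the files. Capitals there mark a match to the seed, AAAGACA, which was searched in the sense strand of each probe only.
hsa-miR-511-5p: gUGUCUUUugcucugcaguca
BID, brighter probe (chr22:18218280-18218309, minus strand): atgtggtcacagctgtatagctgcttccag
BID, dimmer probe (chr22:18218187-18218216, minus strand): acttctattttAAAGACAatgttaaactta
BCL2, brighter probe (chr18:60790738-60790767, minus strand): aacactgtacacataaaaaatacggtaagg
BCL2, dimmer probe (chr18:60985416-60985445, minus strand): agttcggtggggtcatgtgtgtggagagcg

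The dimmer BID probe was the 1 probe of the 61 that held the seed match, at bases 37 to 43 of the probe, and the match was followed by an A (AAAGACAA). Among all 34127 probes, 331 held the match (0.97%) and 105 held it followed by an A (0.308%). The 204 tested probes with the match had a median log2 difference, miR-511 minus control mimic, of -0.0048, against 0.0098 over all tested probes. For the 66 tested probes with the match followed by an A the median was 0.0014. A match in 60 bases is a description of the probe, and the rest of the transcripts was not searched.

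A probe entered the test when the scanner software called it well above background in both experiments for at least 1 of the treatments, which held for 22638 probes. Each array had 64.8% to 69.3% of its probes above that limit, no saturated spot among the non-control spots, and correlations of 0.992 to 0.996 with each other. The scanner software marked the miR-511 array of experiment 1 for evaluation and the other 3 as in range. All 8 monoblast markers found on the array (such as CD33, SPI1 and MPO) were well above background on all 4 arrays, with a summed log2 value of 98.8 to 100.3 per array. Among markers of other cells, EPCAM, COL1A1 and ALB were above background on none of the arrays and CD3E on 3.

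Well above background on all 4 arrays were 59 of the 61 member probes, all of them tested, which covers 38 of the 39 genes. The single probe of HRK, a BH3-only gene known mainly from neurons, and 1 of the 4 CASP10 probes exceeded background on none of the arrays. Nearly the whole machinery was therefore measurable in both treatments. Values below are normalized log2 intensities of 1 probe on 1 array, and levels of different probes are not set against each other. Pairs of values name the miR-511 array first and the control array second, and experiment 1 comes before experiment 2.

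One of the 59 probes, the brighter BID probe, passed an unadjusted p of 0.05 in limma. The study used this threshold together with a further condition over identical replicate probes, which was not applied here. Over all tested probes 498 passed (2.2%), of which 211 were lower (0.932%) and 287 higher (1.27%) with miR-511 mimic. With the experiment number as a block 894 probes passed (3.95%), and the brighter BID probe was again the 1 member probe among them. After Benjamini-Hochberg adjustment no probe passed, member or other, and the smallest adjusted p of all was 0.790. A plain equal-variance test of each probe called 708 probes before adjustment and 0 after it. The share of lower probes among those called was 42.4%, and 54.8% when the arrays were scaled to the 75th percentile. It was 63.7% without the miR-511 array of experiment 1, 74.2% without that of experiment 2, and 32.8% when only probes above background on all 4 arrays were tested.

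BID, the BH3-only protein that carries the death receptor signal to mitochondria, was lower with miR-511 mimic in both experiments. Its brighter probe (chr22:18218265-18218324, hg19) read 14.04 with miR-511 and 14.36 with control mimic in experiment 1, and 13.98 and 14.32 in experiment 2. Both miR-511 arrays lay below both control arrays, and the arrays of one treatment were close together in the 2 experiments. The log2 difference was -0.31 in experiment 1 and -0.34 in experiment 2, with a mean of -0.33 (SE 0.0915), a 1.26-fold lower signal (95% interval 1.06 to 1.49). In bulk RNA, fewer cells of a kind and less RNA per cell cannot be told apart.

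The dimmer BID probe, with 23 bases between it and the brighter one, pointed the same way with a smaller difference. It read 13.99 and 14.14 in experiment 1 and 13.93 and 14.10 in experiment 2, miR-511 first. Again both miR-511 arrays lay below both control arrays. Its log2 difference was -0.15 and -0.17 in the 2 experiments, with a mean of -0.16 (SE 0.0915, 1.12-fold), and its 95% interval of -0.41 to 0.092 includes 0. Both probes lie in the same part of 1 gene and are not independent samples.

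In limma the brighter BID probe had an unadjusted p of 0.0217 (adjusted p 1.00) and the dimmer one 0.155 (adjusted p 1.00). The call for the brighter probe was lost when any 1 of the 4 arrays was left out, with unadjusted p values between 0.0587 (without the miR-511 array of experiment 1) and 0.101 (without the control array of experiment 1), while the log2 difference stayed between -0.36 and -0.30. The limma p-values rest on the spread between 2 arrays per treatment from independent experiments, which limma draws toward the spread of all tested probes. At the brighter BID probe the arrays had an SD of 0.045 with miR-511 and 0.0219 with control mimic. This step raised the SE of that probe to 0.0915. The smallest p an exact permutation test of 2 against 2 arrays can give is 0.333.

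The other BH3-only genes did not pass the test. At their brightest probes BIK and BCL2L11 were lower and BAD and PMAIP1 higher in both experiments, while BBC3 and BMF changed sign. BCL2L11 (BIM), an activator of the effectors, read 12.02 and 12.48 at its brightest probe in experiment 1 and 12.18 and 12.19 in experiment 2, miR-511 first. Both miR-511 arrays lay below both controls, in experiment 2 by almost nothing, and the mean difference was -0.23 (SE 0.146). The other 2 BCL2L11 probes, in other parts of the gene, differed by 0.10 (SE 0.242) and 0.025 (SE 0.0884).

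BMF, a BH3-only protein linked to the cytoskeleton, read 8.33 and 8.64 in experiment 1 and 8.59 and 8.52 in experiment 2, a mean log2 difference of -0.12 (SE 0.133), with overlapping groups. BIK read 11.68 and 11.78, then 11.78 and 11.82, and BAD read 11.10 and 11.09, then 11 and 10.90. Their mean log2 differences were -0.071 (SE 0.0946) and 0.054 (SE 0.114). The treatments overlapped in BAD. In BIK the miR-511 array of experiment 2 and the control array of experiment 1 were equal as rounded here.

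PMAIP1 (NOXA) and BBC3 (PUMA), both known p53 targets, had wide spreads. PMAIP1 read 11.27 and 11.04 in experiment 1 and 11.70 and 11.67 in experiment 2, so that the experiments stood apart and the treatments overlapped. Between the 2 control arrays it differed by 0.63, against a mean difference between treatments of 0.14 (SE 0.28). BBC3 read 8.85 and 8.62 in experiment 1 and 8.56 and 9.30 in experiment 2, with 1 high value on the control array of experiment 2. Its difference was 0.23 in experiment 1 and -0.74 in experiment 2 (mean -0.25, SE 0.272). Without the control array of experiment 1, which leaves the high array as the only control, the mean was -0.59.

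Among the guardians, BCL2 itself had the smallest difference between treatments. BCL2 was named as a reported miR-511 target when these genes were chosen, so both of its probes are given. The brighter probe (chr18:60790723-60790782, hg19), printed 10 times, read 11.82 and 11.81 in experiment 1 and 11.75 and 11.78 in experiment 2, miR-511 first. The groups overlapped, and the mean log2 difference was -0.007 (SE 0.0915), with a 95% interval of -0.26 to 0.24. The spots of this probe had an SD of 0.0277 to 0.0535 within an array.

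The dimmer BCL2 probe (chr18:60985401-60985460, hg19) lies 194618 bases from the brighter one, and the files assign it to another transcript of the gene. It read 10.91 and 10.61 in experiment 1 and 10.35 and 10.70 in experiment 2. The experiments thus differed in direction, 0.30 and -0.35, and the mean was -0.027 (SE 0.216). Decreases of more than 0.26 on the log2 scale lay outside the interval of the brighter probe. The interval of the dimmer probe was wider, -0.62 to 0.56, so this bound does not hold for the transcript it reads. BCL2 protein was not measured here.

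**Figure D1:**
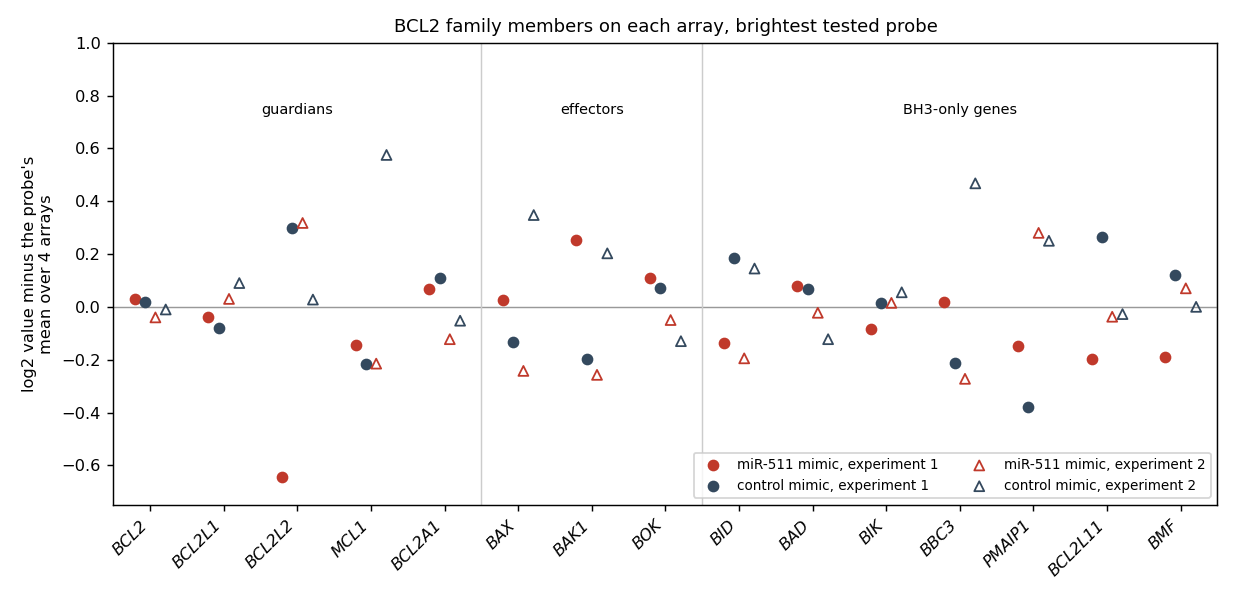
Normalized log2 value of each BCL2 family gene on each of the 4 arrays, minus that probe's mean over the arrays (y axis), for the brightest tested probe of 5 guardians, 3 effectors and 7 BH3-only genes (x axis). Red symbols are miR-511 mimic, dark symbols control mimic, filled circles experiment 1 and open triangles experiment 2. BID has both miR-511 arrays below both controls, MCL1, BAX and BBC3 have 1 high control array in experiment 2, and BCL2L2 has 1 low miR-511 array in experiment 1.

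MCL1 and BCL2L2 (BCL-W) had the largest mean differences among the guardians, and each came from 1 array. MCL1, a short-lived guardian on which many myeloid leukaemia cells depend, read 10.87 and 10.80 in experiment 1 and 10.80 and 11.59 in experiment 2. The control array of experiment 2 stood high and the other 3 were alike. The mean difference of -0.36 (SE 0.288) became 0.029 without that array. Without the control array of experiment 1, which leaves the high array as the only control, it was -0.76.

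BCL2L2 read 10.19 and 11.13 in experiment 1 and 11.15 and 10.86 in experiment 2. The low value was that of the miR-511 array of experiment 1, the array marked for evaluation. The mean difference of -0.32 (SE 0.355) became 0.15 without it. Without the miR-511 array of experiment 2, which leaves the low array as the only miR-511 array, the mean difference was -0.80.

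BCL2L1 (BCL-XL), whose probe was printed 10 times, read 7.20 and 7.16 in experiment 1 and 7.27 and 7.33 in experiment 2, a mean log2 difference of -0.012 (SE 0.11). BCL2A1 (BFL1), an NF-kB-induced guardian of blood cells, read 12.60 and 12.64, then 12.41 and 12.48 at its brighter probe (-0.052, SE 0.124). In both genes the treatments overlapped. The dimmer BCL2A1 probe read 5.51 and 5.31, then 5.41 and 5.26, with both miR-511 arrays above both controls, and differed by 0.18 (SE 0.0956), opposite in sign to the brighter probe.

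BAK1 and the brighter BAX probe differed in opposite directions in the 2 experiments. BAX read 9.71 and 9.55 in experiment 1 and 9.44 and 10.03 in experiment 2 at its brighter probe, a difference of 0.16 and then of -0.60 (mean -0.22, SE 0.211). BAK1 read 12.50 and 12.05, then 11.99 and 12.45, a difference of 0.45 and then of -0.46 (mean -0.0065, SE 0.241). At these probes the treatments overlapped.

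The BAX value on the control array of experiment 2 was not the work of 1 spot: its 10 spots lay between 9.95 and 10.1, all above the highest spot of the other 3 arrays, 9.82. The dimmer BAX probe, 390 bases away, did not share this and read 6.53 and 6.29, then 6.51 and 6.44, with both miR-511 arrays above both controls and a mean difference of 0.15 (SE 0.103). BOK, a BAX-like effector, read 6.97 and 6.93, then 6.81 and 6.73 (0.064, SE 0.124), with overlapping groups.

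**Figure D2:**
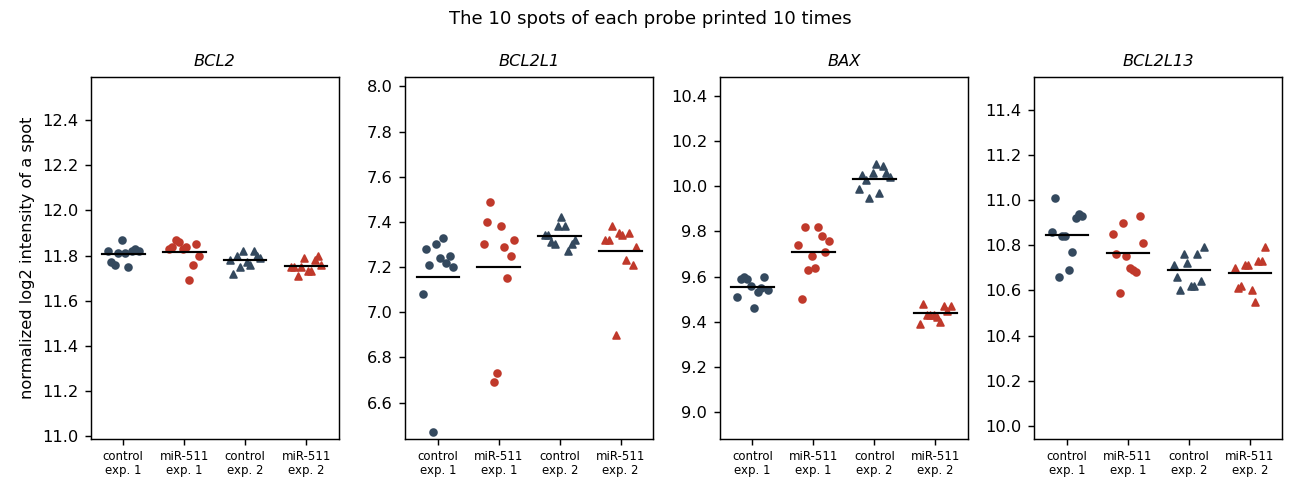
Normalized log2 intensity of the 10 spots of each member probe printed 10 times (y axis), on the 4 arrays (x axis, exp. for experiment), with the array mean as a line. Each panel spans 1.6 log2 units. BCL2 spots overlap on all arrays, whereas the BAX spots of the control array of experiment 2 lie above all others, and BCL2L1 has 4 low spots.

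Set side by side, the 7 tested BH3-only genes had a median log2 difference of -0.12 (brightest probe of each), the 5 guardians of -0.052 and the 3 effectors of -0.0065, against 0.01 over all 18001 tested genes. Within experiments the medians were -0.099 and -0.0078 for BH3-only genes, 0.013 and -0.066 for guardians, and 0.16 and -0.46 for effectors. The BH3-only genes were thus lower than the guardians in experiment 1 and not in experiment 2. Without the miR-511 array of experiment 1 the BH3-only median was -0.024, and without the control array of experiment 2 it was -0.053. The effector median ran from -0.26 without the miR-511 array of experiment 1 to 0.14 without that of experiment 2, and was -0.21 without the control array of experiment 1.

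**Figure D3:**
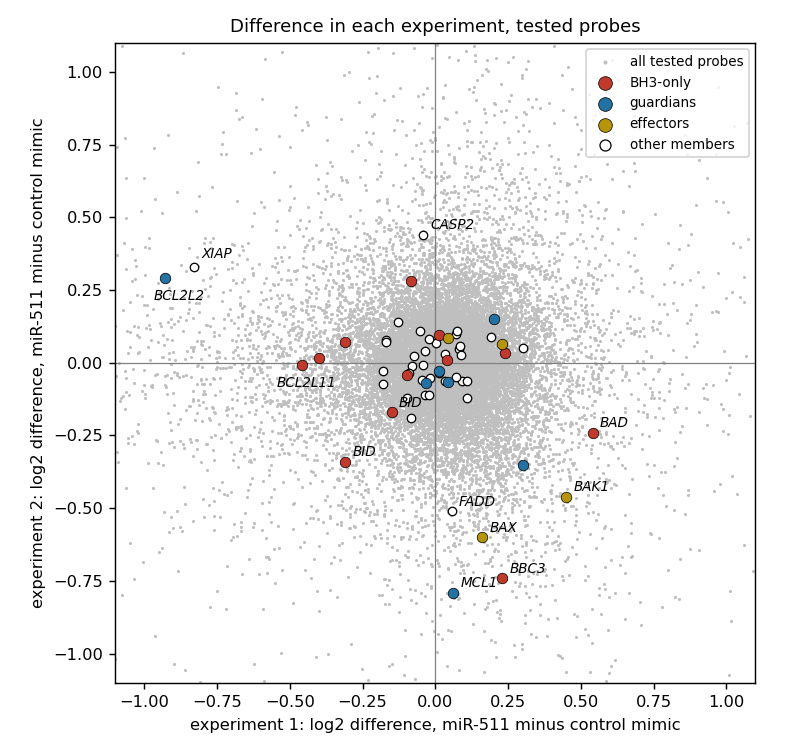
Log2 difference, miR-511 minus control mimic, in experiment 1 (x axis) and experiment 2 (y axis) for the 59 tested member probes (large symbols, coloured for BH3-only genes, guardians and effectors) over all tested probes (grey), of which 529 lie outside the range of -1.1 to 1.1. Both BID probes sit in the lower left, MCL1, BBC3, BAX, FADD and BAK1 lie low on the y axis, and BCL2L2 and XIAP far to the left.

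Across the 59 tested member probes, 16 were lower and 15 higher in both experiments, and 28 changed sign between them. The same direction in both was thus seen in 52.5%, against 51.0% of all tested probes. Across all tested probes the log2 differences of the 2 experiments correlated at 0.0385. By the rounded values, both miR-511 arrays lay below both control arrays for 8 member probes (13.6%, against 9.42% of all tested probes). They lay above them for 7 (11.9%, against 14.5%). Of the 59, 37 differed by less than 0.1 on the log2 scale (62.7%, against 59.1%).

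The median size of the log2 difference was 0.064 over member probes, and that between the control arrays of the 2 experiments was 0.11. Over all tested probes these were 0.079 and 0.14. The first of each pair is a mean over 2 experiments and the second a single difference. The median signed difference was -0.031 over the 38 genes and 0.01 over all tested genes.

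The control array of experiment 2 held the highest value of MCL1, BBC3, BAX and FADD, and a high one of BAK1. At a size chosen after the values were seen, 5 member probes were lower by over 0.4 in experiment 2 (8.47%, against 4.82% of all tested probes) and 1 was higher (1.69%, against 3.91%). In experiment 1, 3 were lower (5.08%, against 6.14%) and 2 higher (3.39%, against 4.10%). Without the control array of experiment 2 the mean differences of MCL1, BBC3, BAX and FADD were 0.029, 0.087, 0.022 and 0.022. Each array held 1 culture, so array and culture cannot be told apart.

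FADD, the adaptor that brings caspase 8 to death receptors, had the largest difference among the death receptor adaptors. It read 12.44 and 12.39 in experiment 1 and 12.37 and 12.89 in experiment 2, with 1 high control array and a mean of -0.23 (SE 0.197). Without the control array of experiment 1, which leaves the high array as the only control, the mean was -0.48. RIPK1, a kinase of the TNF receptor complex, had the smallest, reading 10.17 and 10.10, then 9.89 and 9.94 (0.011, SE 0.143), and the experiments stood further apart than the treatments. CFLAR (FLIP), which blocks caspase 8 activation, differed by 0.093 (SE 0.109), and TRADD by -0.064 (SE 0.0925).

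The caspases stayed close to 0, and none of their tested probes passed the test. All 3 inflammatory caspases, CASP1, CASP4 and CASP5, were lower in both experiments, by small amounts. CASP5 read 11.45 and 11.54, then 11.60 and 11.63 (-0.062, SE 0.107), CASP4 read 13.81 and 13.83, then 13.85 and 13.90 (-0.035, SE 0.0929), and CASP1 differed by -0.054 (SE 0.128). In each the treatments overlapped. The experiments differed more than the treatments, and with 1 array left out the median of the 3 genes ran from -0.14 (without the miR-511 array of experiment 2) to 0.012 (without the miR-511 array of experiment 1).

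Among initiator and executioner caspases, CASP8, the death receptor initiator, had the largest difference. Its brighter probe read 8.10 and 7.90, then 8.16 and 8.07, with both miR-511 arrays above both controls (0.14, SE 0.108), while its dimmer probe differed by -0.046 (SE 0.134). CASP2 had the smallest, reading 10.58 and 10.48, then 10.47 and 10.53 (0.015, SE 0.0974). The executioner CASP6 read 9.73 and 9.83, then 9.68 and 9.80, with both miR-511 arrays below both controls (-0.11, SE 0.0907). CASP9 and CASP10 differed by -0.026 and 0.027. The second CASP2 probe differed by 0.20 (SE 0.225), and by 0.50 without the control array of experiment 1.

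Of the mitochondrial factors, DIABLO was higher and HTRA2 and APAF1 were lower in both experiments, and none of them passed the test. DIABLO (SMAC), which leaves mitochondria to neutralise inhibitors of apoptosis, read 14.74 and 14.45, then 14.59 and 14.54 at its brighter probe, with both miR-511 arrays above both controls (0.17, SE 0.108). This probe matched no RefSeq transcript, and the dimmer one, which did, differed by 0.056 (SE 0.0937). HTRA2, another mitochondrial antagonist of these inhibitors, differed by -0.14 (SE 0.0924), and APAF1, the scaffold of the apoptosome, by -0.10 (SE 0.0953). CYCS, cytochrome c, read 14.26 and 14.15, then 14.34 and 14.40 (0.023, SE 0.127), with overlapping groups.

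The inhibitors of apoptosis were even at their brightest probes. BIRC2 (cIAP1) read 10.83 and 10.82, then 10.78 and 10.81 (-0.012, SE 0.0905), and BIRC3 (cIAP2) read 6.39 and 6.57, then 6.52 and 6.45 (-0.051, SE 0.106). XIAP, a direct caspase inhibitor, differed by -0.026 (SE 0.091). In each the treatments overlapped. A second, dimmer XIAP probe read 6.31 and 7.13, then 7.19 and 6.86, low on the miR-511 array of experiment 1 as BCL2L2 was. Its mean difference of -0.25 (SE 0.334) became -0.69 without the miR-511 array of experiment 2, which leaves only the low miR-511 array.

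The other BCL2-related genes lay within 0.05 of 0 at their brightest probes. BCL2L13, a mitochondrial membrane protein, read 10.77 and 10.85, then 10.68 and 10.69 (-0.046, SE 0.108), and BNIP3, a mitophagy receptor, read 11.82 and 11.84, then 11.83 and 11.75 (0.030, SE 0.0945). The treatments overlapped in both. BNIP3L and BCL2L12 differed by 0.031 and 0.035.

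**Figure D4:**
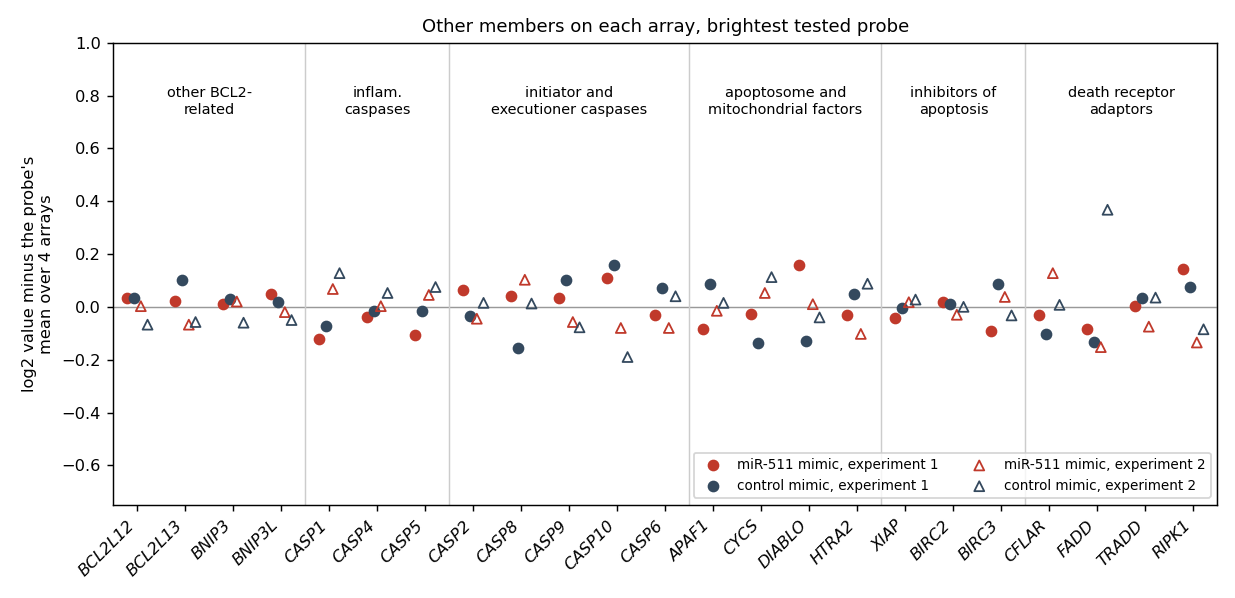
Normalized log2 value of the 23 other genes on each of the 4 arrays, minus the mean of the probe over the arrays (y axis), for the brightest tested probe of each gene (x axis) by group (inflam. for inflammatory). Red symbols are miR-511 mimic, dark symbols control mimic, filled circles experiment 1 and open triangles experiment 2. Most values lie within 0.2 of the mean, and the control array of experiment 2 stands out for FADD.

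Genes with several probes did not always give 1 direction. Of the 17 genes with more than 1 tested probe, 9 had the same sign at all of them and 8 did not. BID, BCL2 and DIABLO belonged to the first kind, and BAX, BCL2A1, BCL2L11 and CASP8 to the second. The BCL2 means (-0.007 and -0.027) were near 0 and both changed sign with 1 array left out, so their shared sign carries little. The matching share over all tested genes is not given here. Of the 61 member probes, 58 matched a RefSeq transcript, each one of the gene named in the files. The dimmer BAD and CASP8 probes and the brighter DIABLO probe matched none.

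The intervals show what 2 arrays per treatment could resolve. The median standard error of a member probe was 0.108, with 4.14 degrees of freedom. BID's interval was the 1 of the 38 at the brightest probe that lay on 1 side of 0, and those of BCL2L2, MCL1, BBC3 and PMAIP1 were the widest.

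**Figure D5:**
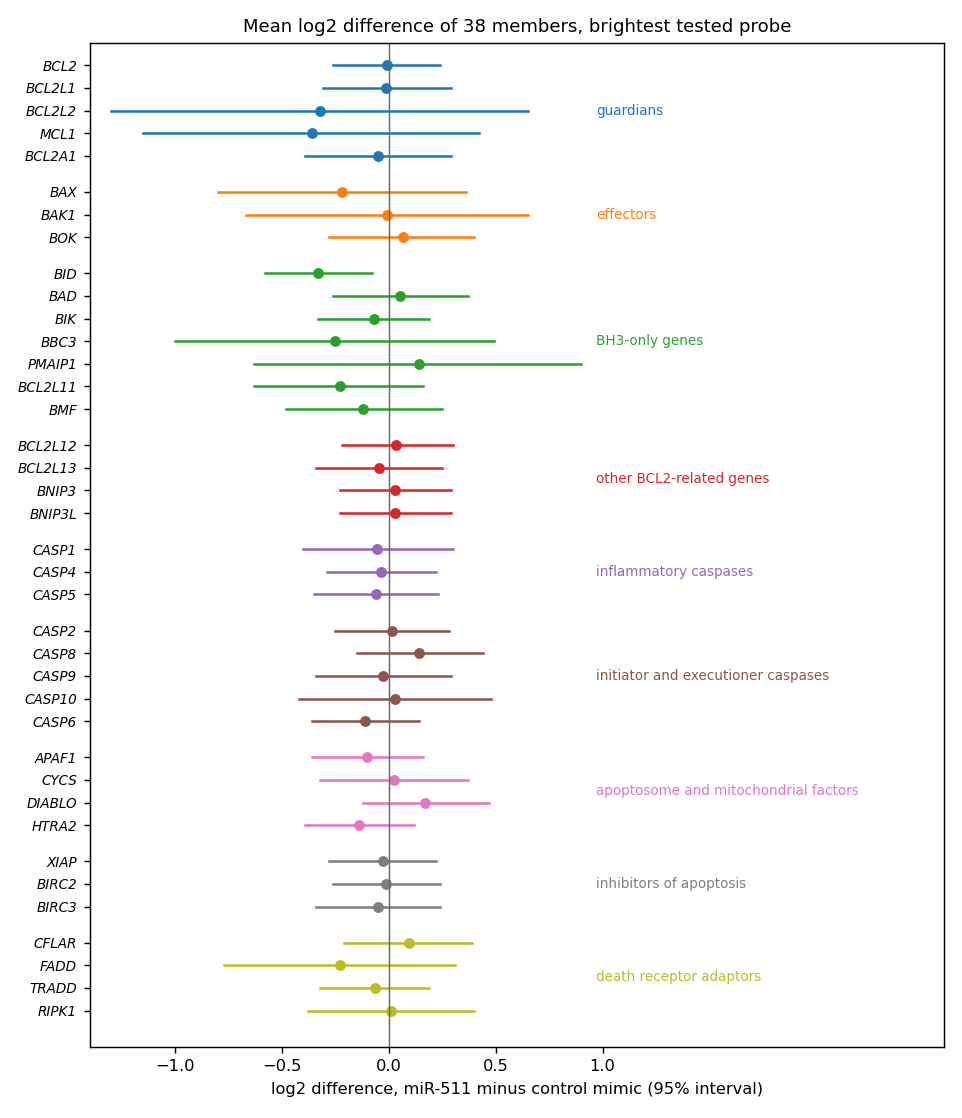
Mean log2 difference, miR-511 minus control mimic (x axis), with its 95% interval from limma (line) for the brightest tested probe of 38 genes (y axis), coloured by group. Only the interval of BID, -0.58 to -0.077, excludes 0, which is the same condition as an unadjusted p below 0.05 in limma.

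Of 35 further genes of apoptosis and pyroptosis, 34 had a probe and 32 a tested one, and 0 of their 48 tested probes passed an unadjusted p of 0.05 in limma, or the adjusted one. The plain equal-variance test of each probe called 2, ENDOG (0.080) and VDAC1 (0.067). The median over the 32 genes was 0.0094. The lowest p values were those of 1 FAS probe, DEDD, BNIP2 and PEA15. FAS encodes a death receptor, and this dim probe read 3.58 and 4.35, then 4.27 and 4.84, a log2 difference of -0.67 (SE 0.306, unadjusted p 0.092 in limma). The 2 brighter FAS probes differed by 0.10 (SE 0.123) and 0.029 (SE 0.145), and the dim one was below the background limit on 1 array. With the experiment number as a block it passed (unadjusted p 0.006 in limma). DEDD, BNIP2 and PEA15 differed by -0.16 (SE 0.0925), -0.24 (SE 0.139) and -0.22 (SE 0.14).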

How the data were processed

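RNA of THP1 cells was profiled on 4 single-dye Agilent arrays of 1 slide, 2 per treatment. The authors deposited scanner intensities (Agilent Feature Extraction, 10.7.3.1 per the file headers), in which the processed signal is background-subtracted and not normalized between arrays, with low spots set to a surrogate value. The authors also deposited a table of quantile-normalized log2 values, used as an alternative. Other alignment or annotation steps are not given in the sources used here.

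The log2 of 43118 non-control spots was taken per array, after leaving out 232 to 301 spots marked as outliers. Arrays were quantile normalized and the spots of a probe averaged, in R 4.3.3. limma 3.58.1 (lmFit, eBayes, no block, two-sided) was fitted over 22638 tested probes, with Benjamini-Hochberg adjustment over all of them. A probe printed 10 times was well above background on an array when over 50% of its spots were. The brightest tested probe stood for a gene. Surrogate values made up 52.1% to 60.8% of the dim spots. The number of arrays limits the precision.

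Experiment numbers pair the arrays, as the labels give them. Deviations of arrays with the same number correlated at 0.271. The functions were tested on simulated data. The genes and lists were chosen with earlier results of these data known. Values on all arrays were given for guardians, effectors, BH3-only genes, probes past the threshold, and the largest and smallest difference of each other group. From the further list, probes past the threshold and the 4 genes of lowest p were named. Positions of probes in exons were not analysed here. Some markers of other cells are not reported here.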

Additional observations from a re-analysis of the deposited data

How the results depend on the processing

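The count of all probes past the unadjusted threshold, 498, was 265 with normexp background correction, 285 with an intensity trend, 894 with the replicate block, 1029 with no filter on dim probes, and 516 to 1379 with 1 array left out. Median differences of all tested probes stayed between 0.0022 and 0.030 in all 14 settings. The count of member probes past it, 1 of 59, was 2 with normexp correction, beside 265 of 22638 over all probes. These were both BID probes, the dimmer at unadjusted p 0.0448 in limma. The count was also 2 with the plain equal-variance test (both BID probes), beside 708 of 22638. The brighter BID probe kept its call with the replicate block and in every other setting that kept all 4 arrays. The count of further apoptosis and pyroptosis probes past it, 0 of 48, was 1 with the replicate block (FAS), beside 894 of 22638 over all probes. With the plain test it was 2, beside 708 of 22638. The replicate block changed no other call of a member.

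With normexp correction the BH3-only median was -0.20 and that of inflammatory caspases -0.047, which was -0.037 with 75th percentile scaling. With 1 array left out the medians ran from -0.061 to -0.018 over all members, -0.12 to -0.024 for BH3-only genes, and -0.10 to -0.020 for guardians. The brighter BCL2 probe turned to 0.0076 with 75th percentile scaling and 0.013 with normexp correction. With the latter CASP1 turned to 0.012, CASP10 to -0.0068 and BIRC2 to 0.049. With 1 array left out, 29 of the 40 probes followed turned, none of them past the threshold in the full fit. The ranges of their differences were -0.038 to 0.15 for BAD, -0.26 to 0.25 for BAK1, -0.46 to 0.022 for BAX, -0.59 to 0.087 for BBC3, -0.04 to 0.026 for BCL2, -0.31 to 0.25 for the dimmer BCL2 probe, -0.15 to 0.046 for BCL2A1, -0.1 to 0.076 for BCL2L1, -0.013 to 0.084 for BCL2L12, -0.12 to 0.033 for BCL2L13, -0.8 to 0.15 for BCL2L2, -0.041 to 0.018 for BIRC2, -0.12 to 0.014 for BIRC3, -0.25 to 0.012 for BMF, -0.019 to 0.079 for BNIP3, -0.0028 to 0.065 for BNIP3L, -0.035 to 0.16 for BOK, -0.15 to 0.044 for CASP1, -0.15 to 0.2 for CASP10, -0.04 to 0.07 for CASP2, -0.072 to 0.0023 for CASP4, -0.14 to 0.012 for CASP5, -0.12 to 0.067 for CASP9, -0.1 to 0.15 for CYCS, -0.48 to 0.022 for FADD, -0.76 to 0.029 for MCL1, -0.18 to 0.45 for PMAIP1, -0.13 to 0.15 for RIPK1, -0.056 to 0.0043 for XIAP. The BID probes ran from -0.36 to -0.30 and from -0.19 to -0.13. Causes were not tested. No slide block was fitted, since all arrays shared 1 slide. With 2 arrays per treatment and a median standard error of 0.108, differences of the size seen in most members could not be told from 0. In fits that leave a treatment with 1 array, that array is assumed to vary like those of the other treatment.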
